A study of Mus musculus with 9 samples.

Results

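The regions described here are the stretches of open chromatin that lie in the last 3 Mb of each mouse autosome, on the telomere side. They were chosen by position alone: a consensus region on chromosomes 1 to 19 belongs if its end lies within 3 Mb of the distal end of the chromosome in the mm10 (GRCm38) assembly. Of 80827 consensus regions, 2417 lie there, 77126 lie elsewhere on autosomes, and 2405 of those lie in the next 3 Mb inward. Of the 2417, 2405 had enough counts to be tested and 12 did not.

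Telomeres are arrays of a short repeat at the chromosome ends, packed into compact chromatin, and mouse chromosomes carry their centromere at the other end. ATRX is a chromatin remodeler that, with its partner DAXX, deposits histone H3.3 at telomeres and at other repeats, and its loss is known from tumours that maintain telomeres without telomerase. The assembly closes each chromosome with a run of undetermined bases that stands for the telomere, so open regions can be mapped only inward of it.

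The cells are alphaTC1, a mouse pancreatic alpha cell line that came from glucagon-producing tumours of a transgenic mouse. All groups were transduced and collected 5 days later, and each has 3 libraries that the labels call biological replicates. Nothing says more of how these were grown, so p-values measure the spread between these libraries. The empty vector group is the control, a second group carries an shRNA against Smndc1 (the sh95 samples), a splicing factor with a Tudor domain, and the third carries an shRNA against Atrx. All 3 groups are thus transduced cells of 1 line, and the labels give 1 shRNA name for Smndc1 and none for Atrx. Open chromatin does not show whether either knockdown worked.

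The 9 libraries hold 5.29 to 8.15 M counts over all regions. Replicate 3 of every group has less contrast: its strongest 10% of regions hold 38.5% to 38.8% of its counts, against 43.3% to 48.8% in the other 6 libraries. For that reason each count of changed regions is given from 2 fits of edgeR's quasi-likelihood test, 1 with TMM factors (a single scale per library) and 1 with trended offsets (a curve per library that evens out the contrast). Levels are CPM, counts scaled to library size with TMM factors, fold changes are log2 with the standard error (SE), and a region is called at a Benjamini-Hochberg adjusted p under 0.05 over all 80345 tested regions. Open regions were found at the alpha cell genes Gcg, Irx1, Irx2, Pax6, Pcsk2, Ttr and Slc7a2, and at 2 of 6 beta cell, 0 of 2 delta cell, 1 of 4 acinar, 1 of 2 ductal, 3 of 3 endothelial, 1 of 2 immune and 2 of 2 fibroblast genes. The strongest of these regions stood at 51.65 CPM for the beta cell, 56.51 for the ductal, 44.35 for the endothelial and 36.73 for the fibroblast genes, each above the 31.44 CPM of the strongest at Gcg, so an open region at a marker gene does not by itself tell these cell types apart.

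The sequences that the data bear on most directly are the 3 promoters that lie in called distal regions. They are RefSeq windows on GRCm38.p6 from 250 bases before to 50 bases after a transcription start, written 5′ to 3′ on the strand of the gene. Capitals mark the GC box, GGGCGG on either strand, the element that Sp transcription factors bind. The first, at chr12:118301391-118301690 on the minus strand, belongs to Sp4, which encodes such a factor, and holds 5 GC boxes and 42 CG pairs.
Sp4: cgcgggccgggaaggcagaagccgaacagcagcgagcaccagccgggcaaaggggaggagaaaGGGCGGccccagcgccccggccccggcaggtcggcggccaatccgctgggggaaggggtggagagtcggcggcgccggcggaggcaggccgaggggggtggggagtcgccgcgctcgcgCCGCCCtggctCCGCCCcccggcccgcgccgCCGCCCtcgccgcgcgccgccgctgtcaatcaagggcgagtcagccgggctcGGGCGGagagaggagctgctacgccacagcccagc
The second, at chr1:193242311-193242610 on the minus strand, belongs to Hsd11b1, whose enzyme regenerates active glucocorticoid, and holds 0 GC boxes and 6 CG pairs.
Hsd11b1: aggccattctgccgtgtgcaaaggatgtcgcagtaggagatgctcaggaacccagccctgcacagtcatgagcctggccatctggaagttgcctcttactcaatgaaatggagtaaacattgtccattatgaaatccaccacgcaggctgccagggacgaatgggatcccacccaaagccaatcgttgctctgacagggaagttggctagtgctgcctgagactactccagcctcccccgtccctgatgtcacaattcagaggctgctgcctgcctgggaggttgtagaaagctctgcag
The third, at chr2:181581933-181582232 on the minus strand, belongs to Uckl1, a uridine-cytidine kinase-like gene, and holds 1 GC box and 19 CG pairs.
Uckl1: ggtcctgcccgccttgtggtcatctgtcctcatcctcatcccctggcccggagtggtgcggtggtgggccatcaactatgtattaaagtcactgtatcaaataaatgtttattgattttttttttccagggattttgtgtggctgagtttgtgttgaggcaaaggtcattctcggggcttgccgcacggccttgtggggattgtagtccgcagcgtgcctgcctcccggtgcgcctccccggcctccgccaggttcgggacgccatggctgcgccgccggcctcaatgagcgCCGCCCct

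Letters of this kind are common. A GC box occurs in 35.7% of all 32851 promoter windows of the table, in 38.5% of the 1030 windows in the last 3 Mb, and in 63.8% of the 403 of these that overlap an open region. The telomere repeat unit TTAGGG, on either strand, occurs in 10.6% of all promoter windows, in 9.9% of the distal ones and in 9.18% of the distal ones in open chromatin. It is in none of the 3 promoters printed above. The median distal promoter in an open region has 23.0 CG pairs, against 8.0 for all distal promoters and 7.0 for all promoters. In all, 39.1% of distal promoters are in an open region. Open promoters outside the last 3 Mb were not counted apart, so these values do not show a trait of distal promoters.

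Open regions lay at 42.4 per Mb in the last 3 Mb, against 32.06 per Mb over the rest of the autosomes. Their median level was 6.68 CPM against 5.13, and their median width 501 bp in both. Neither density nor level is particular to the last 3 Mb: the next 3 Mb inward hold 2405 regions against 2417, with a median level of 6.87 CPM. Promoters made up 13.32% of distal and 11.72% of other autosomal regions, gene bodies 50.48% and 51.59%, and stretches between genes 36.2% and 36.69%. Promoters on chromosome 18 were not used here. In all, 711 protein-coding genes end in these windows.

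The ends differ widely among themselves. Chromosome 2 has 248 distal regions, chromosome 11 has 236 and chromosome 15 has 218, while chromosome 18 has 24, chromosome 13 has 28 and chromosome 14 has 31. On chromosome 2 the end holds 82.7 regions per Mb and the rest of the chromosome 33.3, whereas on chromosome 17 the end holds 22.7 and the rest 44.5. The strongest distal region is a promoter on 16 of the 18 autosomes whose promoters were used. On chromosome 11 it is that of Fasn, the fatty acid synthase gene, at a mean of 186.1 CPM with empty vector. On chromosome 15 it is that of Sp1, the founding Sp factor, at 154.4 CPM, and on chromosome 2 that of Lsm14b, an RNA-binding protein gene, at 131.9 CPM.

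Taken as whole 3 Mb blocks, chromosome ends gave no call with either shRNA, and the groups overlap in the share of counts that distal regions hold. Distal regions held 3.64%, 3.60% and 3.71% of autosomal counts in the empty vector libraries, 3.55%, 3.64% and 3.78% with Smndc1 shRNA, and 3.61%, 3.59% and 3.59% with Atrx shRNA. The group means were 3.65 ± 0.0544%, 3.66 ± 0.114% and 3.60 ± 0.00707% (SD, n = 3 each). Atrx shRNA replicate 1 and Smndc1 shRNA replicate 2 lay inside the range of the empty vector libraries. Atrx shRNA replicates 2 and 3 and Smndc1 shRNA replicate 1 lay below that range, and Smndc1 shRNA replicate 3 above it. The median distal region had a log2 fold change of 0.03 with Smndc1 shRNA, as against 0.02 for other autosomal regions, and of -0.0082 with Atrx shRNA, as against 0.0089.

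Counts summed over each 3 Mb end were tested in edgeR among 847 such windows laid along the genome, of which 0.0% were called in any of the 3 comparisons. None of the 19 autosomal ends was called (0 with limma voom as well). At an unadjusted p under 0.05, 1 end passed with Smndc1 shRNA, 1 with Atrx shRNA and 0 between the shRNAs. Of all 847 windows, 6.38%, 3.66% and 3.19% passed in the same order, so 1 of 19 ends is near the background. With both shRNAs the end that passed was that of chromosome 19. Its end summed to 952.4, 964.6 and 939.2 CPM with empty vector, to 989.4, 1038.6 and 1019.6 CPM with Smndc1 shRNA and to 1049.4, 1030.0 and 1016.3 CPM with Atrx shRNA. Both shRNA groups lie above all 3 empty vector libraries there, by 0.09 ± 0.03 with Smndc1 shRNA (edgeR, adjusted p = 0.663) and by 0.12 ± 0.03 with Atrx shRNA (adjusted p = 0.959). Across the 19 ends the fold changes ran from -0.15 to 0.11 with Smndc1 shRNA and from -0.09 to 0.12 with Atrx shRNA.

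**Figure D1:**
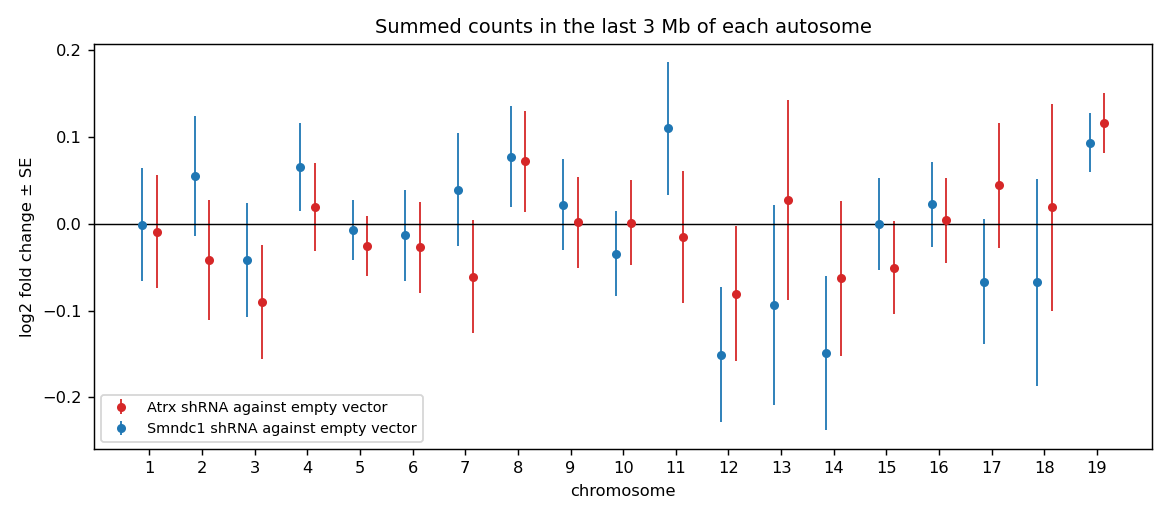
Log2 fold change (± SE) of counts summed over the last 3 Mb of each autosome, for Atrx shRNA (red) and Smndc1 shRNA (blue) against empty vector, from the edgeR fit to 9 libraries. The 19 ends lie between -0.15 and 0.12, and none was called.

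With Atrx shRNA, regions at the outermost mapped sequence had higher levels than with empty vector. Distances are taken to the last base of the chromosome in the assembly, so they include its closing run of undetermined bases. None of the 2417 regions lies nearer to that base than 101065 bp. The outermost 16, on chromosomes 3, 5, 7, 11, 13, 17, 18 and 19, lie at 101.1 to 104.2 kb. All 16 had a positive fold change with Atrx shRNA, with a median of 1.09 and a range from 0.43 to 2.22. Like-strength regions genome-wide (50854 tested regions, between the lowest and highest mean level of the 16) had a median of 0.03. The distance limit of this class was set after fold changes by distance had been seen, so these counts describe the class and no test is given for it. The last region inside it, at 104.2 kb on chromosome 18, had a fold change of 0.99. The next 3 regions beyond the limit, at 105.7 kb on chromosome 7 and at 110.2 and 112.2 kb on chromosome 2, had -0.11, 0.24 and 1.30, so a wider class would hold regions near or below 0.

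The 16 regions are weak, with 4 to 103 counts each in a library. Summed, they stood at 58.8, 48.8 and 49.0 CPM in the empty vector libraries and at 111.3, 117.8 and 99.5 CPM with Atrx shRNA. The Atrx shRNA libraries do not overlap with the empty vector libraries. With Smndc1 shRNA the sums were 66.0, 99.3 and 59.4 CPM, between the other groups, with replicate 2 close to the Atrx shRNA libraries. In 10 of the 16, every Atrx shRNA library lay above every empty vector library, whereas 4.83% of all tested regions showed that order.

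The regions differ in how firmly they stand apart. With TMM factors none of the 16 was called (9 had an unadjusted p under 0.05, and 10 with DESeq2 and 10 with limma voom, which also called 0), and 0.0% of all tested regions were called in that comparison. Over all tested regions 5.75% had an unadjusted p under 0.05 with TMM factors. With trended offsets 3 of the 16 were called, and over all tested regions 0.195% were called as higher. The region chr17:94883410-94883910, which is 3.485 kb from Gm20939, stood at 2.52, 0.519 and 1.10 CPM with empty vector and at 6.58, 6.49 and 6.17 CPM with Atrx shRNA. Its fold change was 2.05 ± 0.49 with trended offsets (edgeR, adjusted p = 0.0252) and 2.22 ± 0.54 with TMM factors (adjusted p = 0.226).

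On chromosome 18, the region chr18:90599805-90601255 stood at 4.29, 6.74 and 2.51 CPM with empty vector and at 11.7, 12.6 and 9.41 CPM with Atrx shRNA (1.34 ± 0.31 with trended offsets, edgeR adjusted p = 0.0173, and 1.29 ± 0.31 with TMM factors, adjusted p = 0.221). On chromosome 11, the region chr11:121980179-121981233 stood at 5.63, 5.58 and 5.63 CPM with empty vector and at 10.3, 16.2 and 11.2 CPM with Atrx shRNA (1.22 ± 0.28, adjusted p = 0.0197, and 1.15 ± 0.27, adjusted p = 0.221). In these 2 regions too the groups do not overlap. Its neighbour chr11:121978060-121979288 stood at 6.52, 8.04 and 11.3 CPM with empty vector and at 16.5, 18.9 and 11.7 CPM with Atrx shRNA and just missed the threshold with trended offsets (0.92, adjusted p = 0.0544).

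Other ends carried pairs of such regions. On chromosome 5, chr5:151731869-151732853, which is 80.661 kb from the replication factor gene Rfc3, stood at 3.26, 3.24 and 2.82 CPM with empty vector and at 5.62, 8.97 and 9.09 CPM with Atrx shRNA (1.34 ± 0.40 with TMM factors, edgeR adjusted p = 0.499). The pair on chromosome 13 lies beside Tcstv3, a gene of a family of near-identical copies that is transcribed in early embryos and embryonic stem cells. There, chr13:120319071-120319684 stood at 2.22, 2.59 and 2.505 CPM with empty vector and at 8.83, 4.77 and 6.65 CPM with Atrx shRNA (1.47 ± 0.44, adjusted p = 0.519). These regions did not pass the test, and their groups do not overlap. The other region of each pair has overlapping groups: chr5:151733118-151733618 stood at 5.18, 2.85 and 0.939 CPM with empty vector and at 4.34, 4.39 and 3.57 CPM with Atrx shRNA (0.45 ± 0.50), and chr13:120320022-120320532 at 6.22, 2.21 and 2.19 CPM and at 6.58, 6.87 and 5.52 CPM (0.84 ± 0.47). On chromosome 19, chr19:61329245-61329745 stood at 1.04, 1.56 and 0.939 CPM with empty vector and at 3.21, 3.25 and 5.19 CPM with Atrx shRNA. Its groups do not overlap, and it was not called (1.70 ± 0.68 with TMM factors, edgeR adjusted p = 0.767). Its neighbour chr19:61328597-61329097 stood at 2.22, 2.72 and 2.35 CPM with empty vector and at 4.01, 3.44 and 2.43 CPM with Atrx shRNA, with groups that overlap (0.43 ± 0.57).

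**Figure D2:**
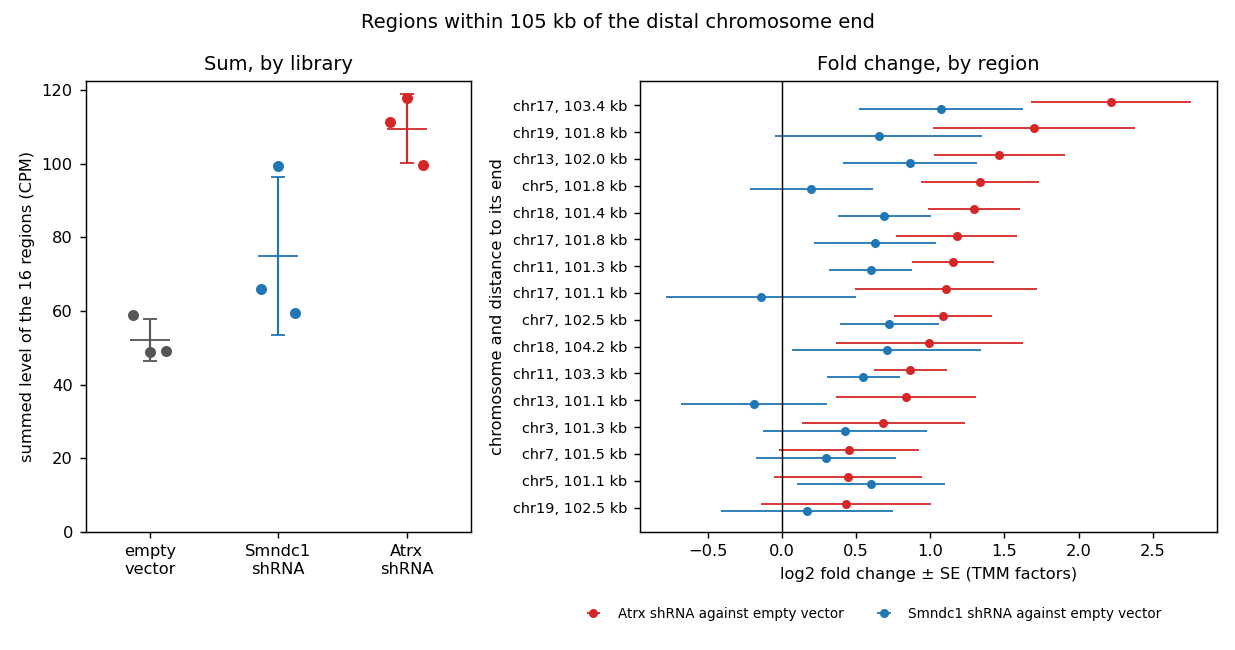
Left, summed level (CPM) of the outermost 16 regions in each library (points), with the mean and SD of each group; the Atrx shRNA libraries sit between 99.5 and 117.8, above all empty vector libraries. Right, log2 fold change (± SE, TMM factors) of each region against empty vector, with Atrx shRNA in red and Smndc1 shRNA in blue; all 16 red points lie above 0.

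Further inward the fold changes lay near 0. Of the next 21 regions, up to 150 kb from the end, 8 had a positive fold change with Atrx shRNA, with a median of -0.10. Of the 30 at 150 to 200 kb 19 were positive (median 0.13), and of the 44 at 200 to 300 kb 27 were (median 0.14). From 300 kb inward the medians by class ran from -0.04 to 0.02. Taking the single region nearest to the end on each of the 19 autosomes, whatever its distance (101.1 to 706.0 kb), 17 were positive. This set is not separate from the outermost 16: on the 8 chromosomes of that class, the nearest region belongs to both. Of 61274 tested regions of like strength to the 19, 50.2% were positive (TMM factors). With trended offsets 3 of these 19 were called: those on chromosomes 11 and 18 above, and chr6:149584434-149585726 inside the gene model Gm21814. The last stood at 5.92, 5.84 and 5.32 CPM with empty vector and at 9.96, 14.1 and 12.3 CPM with Atrx shRNA (1.14 ± 0.29, edgeR adjusted p = 0.0457), with no overlap.

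With other settings or with a library left out, 15 or 16 of the 16 end regions, and 14 to 18 of the 19 nearest ones, were positive with Atrx shRNA, except that a filter on mean counts of at least 50 left 2 and 3 of them (2 and 2 positive). With trended offsets, the number called among the 16 was 0 without Atrx shRNA replicate 1 or 2, 1 without empty vector replicate 1 or 2 and 2 without empty vector replicate 3, and 4 or 5 without Atrx shRNA replicate 3 or Smndc1 shRNA replicate 2 or 3. In bulk libraries, more cells with an open region and more signal per cell cannot be told apart. The sources used here do not say how reads that map to several chromosome ends were treated, or from which libraries the consensus regions were built. Their part in these values was not tested.

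With Smndc1 shRNA 14 of the 16 end regions were positive against empty vector, with a median of 0.60. Of the 16, 0 were called with either fit, and DESeq2 and limma voom called 0. With each fit 4 had an unadjusted p under 0.05. Over all tested regions 8.09% had such a p with TMM factors and 12.5% with trended offsets. The count of 14 rests on 1 library: without Smndc1 shRNA replicate 2, 11 of 16 were positive with TMM factors (median 0.35) and 9 of 16 with trended offsets (median 0.07). With all 9 libraries, 55.5% of like-strength regions genome-wide were positive with Smndc1 shRNA, with a median of 0.07 (TMM factors). The comparisons share the empty vector libraries. Set directly against each other, 1 of 16 was higher with Smndc1 shRNA than with Atrx shRNA, the median was -0.55, and 0 were called with either fit (5 had an unadjusted p under 0.05 with each). Between the shRNAs, 5.4% of all tested regions had such a p with TMM factors and 9.3% with trended offsets.

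**Figure D3:**
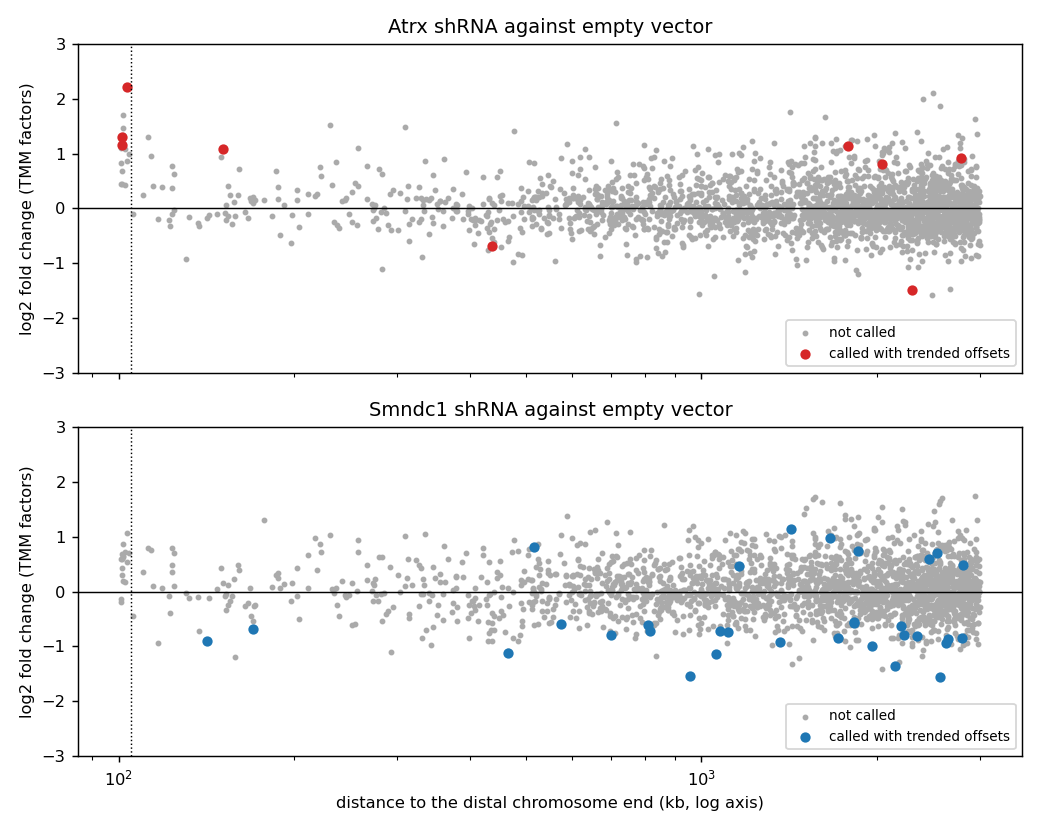
Log2 fold change (TMM factors) of each tested distal region against its distance to the chromosome end (log axis), for Atrx shRNA above and Smndc1 shRNA below; coloured points were called with trended offsets and the dotted line marks the limit of the outermost class. With Atrx shRNA the 16 points left of the line all lie above 0.

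Over the whole 3 Mb, few other distal regions changed with Atrx shRNA. With TMM factors 0 of 2405 were called (6.53% had an unadjusted p under 0.05, against 5.75% of all tested regions), and DESeq2 and limma voom called 0. With trended offsets 7 were higher and 2 lower, which is 0.374% of those tested against 0.269% of all tested regions (0.195% higher and 0.0734% lower). Besides the 4 higher end regions above, the higher ones lie at Krt8, Cd63 and Eif4a3.

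A region 0.827 kb upstream of the start of Krt8, which encodes a keratin of simple epithelia, stood at 9.48, 15.8 and 11.4 CPM with empty vector and at 23.1, 24.4 and 17.4 CPM with Atrx shRNA (0.87 ± 0.21 with trended offsets, edgeR adjusted p = 0.0264). A region inside Cd63, a tetraspanin gene of late endosomes and secretory vesicles, stood at 4.44, 4.93 and 5.17 CPM against 14.3, 7.83 and 9.74 CPM (1.2 ± 0.30, adjusted p = 0.0384). A region inside Eif4a3, a core helicase of the exon junction complex, stood at 6.37, 8.17 and 10.5 CPM against 20.9, 11.4 and 14.6 CPM (0.98 ± 0.25, adjusted p = 0.039). In all 3 the Atrx shRNA libraries lie above the empty vector libraries.

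The 2 lower regions lie near Sox18 and Ptger3. The region 3.688 kb from Sox18, an endothelial transcription factor gene, stood at 36.3, 40.6 and 31.1 CPM with empty vector and at 26.01, 22.5 and 18.5 CPM with Atrx shRNA (-0.66 ± 0.16, edgeR adjusted p = 0.0303). The region 98.184 kb from Ptger3, a prostaglandin E receptor gene, stood at 6.52, 10.4 and 5.01 CPM and at 2.73, 2.86 and 2.272 CPM (-1.52 ± 0.39, adjusted p = 0.0408). The number of such calls rests on single libraries: there were 0 without Atrx shRNA replicate 1 or 2, 1 without empty vector replicate 1 or 2, 5 or 25 when Smndc1 shRNA replicate 1 or 3 was left out, and 14 when Atrx shRNA replicate 3 was.

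With Smndc1 shRNA, distal regions were called at about the rate of the genome and mostly as lower. With TMM factors 0 were higher and 3 lower, which is 0.125% of tested distal regions against 0.156% of all tested regions (0.0199% higher and 0.136% lower). With trended offsets 8 were higher and 24 lower, 1.33% against 1.13% (0.416% higher and 0.717% lower). Neither share is far from its background.

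The region with the smallest adjusted p lies at the 3′ side of Zc3h10, a zinc finger gene, at chr10:128542932-128543505, which is 55 bp outside the gene and 4.241 kb downstream of its start. It stood at 25.5, 22.3 and 24.9 CPM with empty vector, 8.53, 10.3 and 9.64 CPM with Smndc1 shRNA and 22.6, 18.5 and 20.5 CPM with Atrx shRNA. Its fold change was -1.35 ± 0.23 (edgeR, TMM factors, adjusted p = 0.00223). The promoter of Zc3h10, in a separate region, stood at 49.6, 58.0 and 36.9 CPM with empty vector and at 51.8, 52.2 and 44.5 CPM with Smndc1 shRNA, so those groups overlap.

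The second of the 3, chr16:97252946-97253651, lies 82.21 kb upstream of the start of Dscam, a neuronal adhesion gene. It stood at 10.7, 5.97 and 14.4 CPM with empty vector and at 3.53, 2.71 and 4.40 CPM with Smndc1 shRNA (-1.53 ± 0.33, edgeR, TMM factors, adjusted p = 0.022). The last, chr2:180154626-180155311 inside Osbpl2, an oxysterol-binding protein gene, stood at 24.6, 27.9 and 26.6 CPM and at 9.71, 12.4 and 17.6 CPM (-1.0 ± 0.23, adjusted p = 0.0438). In all 3 the Smndc1 shRNA libraries lie below the empty vector libraries.

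Promoters were among the regions called with trended offsets alone. At Hsd11b1 (sequence above) the region stood at 65.8, 44.6 and 45.5 CPM with empty vector and at 28.8, 31.9 and 29.9 CPM with Smndc1 shRNA, with no overlap (-0.72 ± 0.14, edgeR adjusted p = 0.000512, against -0.78 ± 0.25 and adjusted p = 0.228 with TMM factors). At Sp4 both neighbouring regions that share its promoter were called. The stronger, chr12:118301655-118302411, stood at 111.7, 104.1 and 69.7 CPM with empty vector and at 70.9, 72.5 and 49.6 CPM with Smndc1 shRNA (-0.52 ± 0.11, adjusted p = 0.00241). The other stood at 61.5, 71.5 and 39.6 CPM and at 43.4, 39.0 and 34.7 CPM (-0.49 ± 0.13, adjusted p = 0.0283). On the TMM scale the groups overlap in both Sp4 regions, through replicate 3 of empty vector.

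Within gene bodies, lower regions lay in Krt7, a keratin of ducts (-0.85 ± 0.22, edgeR with trended offsets, adjusted p = 0.0217), Nalcn, a sodium leak channel (-0.83 ± 0.22, adjusted p = 0.0228), Csnk1d, a casein kinase of the circadian clock (-0.66 ± 0.16, adjusted p = 0.0121), Dnajc5, a synaptic vesicle chaperone (-0.55 ± 0.15, adjusted p = 0.0458), and Taf4, a subunit of the general factor TFIID (-0.56 ± 0.16, adjusted p = 0.0458). In Cdh4, which encodes R-cadherin, a region fell by 0.75 on the log2 scale (adjusted p = 0.00087) while another, in the same gene, rose by 0.65 (adjusted p = 0.0371). Higher regions also lay in Dido1 (1.19 ± 0.30, adjusted p = 0.0153), at B3galt6, a glycosaminoglycan linker enzyme gene (0.89 ± 0.25, adjusted p = 0.0418), and in Irf2bp2, a transcriptional corepressor (0.53 ± 0.14, adjusted p = 0.0192). Far from genes, the region 56.928 kb from Zranb2 fell furthest, from 5.92, 4.28 and 5.32 CPM to 2.5, 0.678 and 2.03 CPM (-1.74 ± 0.46, adjusted p = 0.0239).

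A region 1.124 kb upstream of the start of Th, which encodes the rate-limiting enzyme of catecholamine synthesis, separated the 2 shRNAs. At chr7:142901119-142902291 it stood at 27.1, 19.97 and 16.9 CPM with empty vector, 30.0, 38.5 and 36.2 CPM with Smndc1 shRNA and 16.5, 16.4 and 15.3 CPM with Atrx shRNA. The Smndc1 shRNA libraries lie above all the others. The fold change was 0.79 ± 0.17 against empty vector with trended offsets (edgeR, adjusted p = 0.00222) and 0.71 ± 0.23 with TMM factors (adjusted p = 0.248), and 1.12 ± 0.24 against Atrx shRNA with TMM factors (adjusted p = 0.0365).

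**Figure D4:**
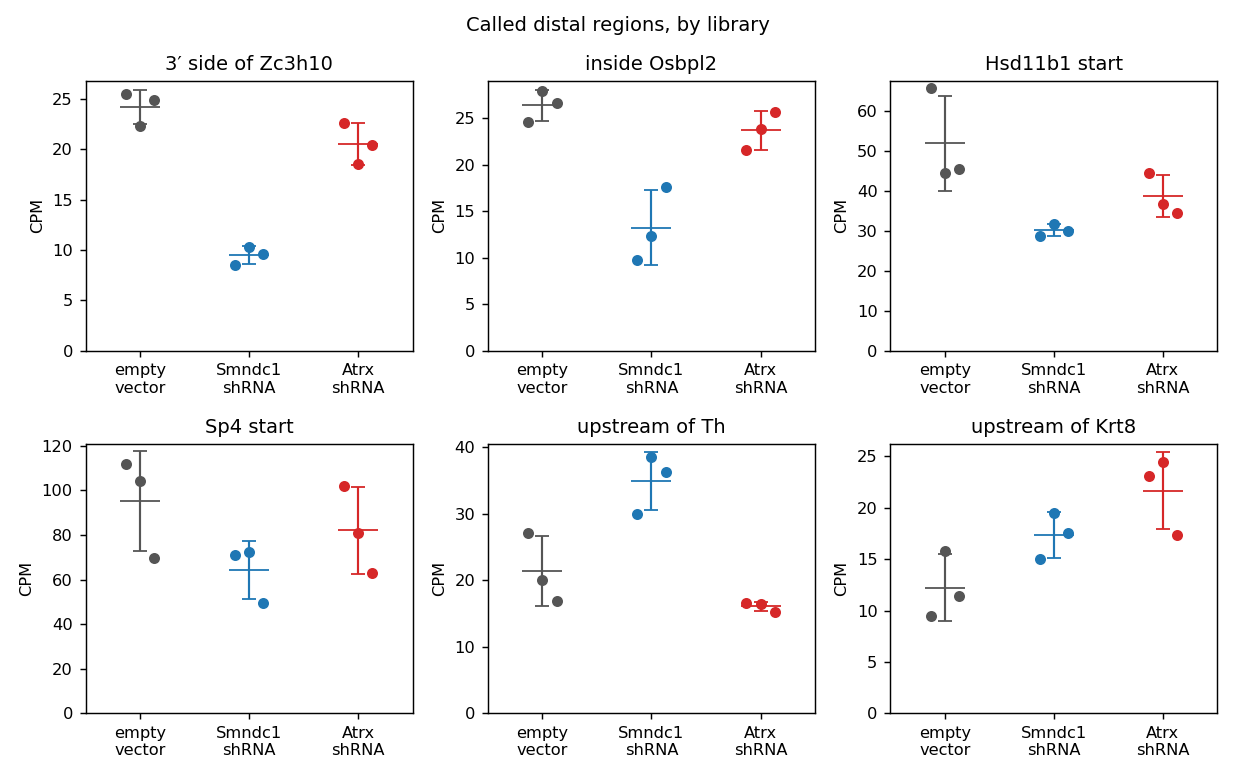
Levels (CPM) of 6 called distal regions in each library (points), with the mean and SD of each group of 3. The regions at Zc3h10, Osbpl2 and Hsd11b1 are lowest with Smndc1 shRNA, that upstream of Th is highest with it, the groups overlap at Sp4, and that upstream of Krt8 has its highest mean with Atrx shRNA.

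Between the shRNAs, 1 distal region was higher and 2 lower with Smndc1 shRNA by TMM factors, 0.125% of those tested against 0.0759% of all tested regions (0.0224% higher and 0.0535% lower). With trended offsets 8 were higher and 15 lower, 0.956% against 0.592% (0.205% higher and 0.387% lower). The higher one is that of Th, and the lower ones are that of Zc3h10 (-1.11 ± 0.23, edgeR adjusted p = 0.0334) and chr19:60615337-60615993, 34.314 kb from Cacul1, a cullin-associated gene. The last stood at 21.0, 23.5 and 25.2 CPM with empty vector, 13.97, 14.7 and 13.7 CPM with Smndc1 shRNA and 29.4, 30.4 and 29.5 CPM with Atrx shRNA (-1.07 ± 0.23, adjusted p = 0.0367). The 3 groups do not overlap there.

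With trended offsets the promoter of Uckl1 (sequence above) was called in this comparison, at 103, 97.3 and 98.3 CPM with Smndc1 shRNA and 87.2, 75.6 and 66.5 CPM with Atrx shRNA (0.47 ± 0.11, edgeR adjusted p = 0.0194). Empty vector libraries stood at 102, 103 and 90.8 CPM. Regions near Krt84 (0.84 ± 0.15, adjusted p = 0.000288), 7 bp outside Acvrl1, an endothelial receptor gene (0.67 ± 0.15, adjusted p = 0.00823), and in Shank2, a synaptic scaffold gene (0.52 ± 0.14, adjusted p = 0.0448) were higher with Smndc1 shRNA. Regions in Dscam (-0.90 ± 0.20, adjusted p = 0.00626), Myt1, a neuroendocrine zinc finger factor (-0.86 ± 0.22, adjusted p = 0.0242), and Atf7 (-0.63 ± 0.16, adjusted p = 0.0269) were lower.

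The call counts rest on single libraries. With Smndc1 shRNA against empty vector, where all libraries gave 3 TMM calls, 0 were made without empty vector replicate 1 or Smndc1 shRNA replicate 1 and 1 without Smndc1 shRNA replicate 2, while 7 were made without Atrx shRNA replicate 3 and 19 without empty vector replicate 3. With trended offsets the 32 became 7, 9 and 52 when replicate 1, 2 or 3 of empty vector was left out and 17 when Smndc1 shRNA replicate 1 was. Between the shRNAs, 0 TMM calls were made without replicate 1 or 2 of any group and 1 without Smndc1 shRNA replicate 3. There the 23 calls with trended offsets became 6 when Atrx shRNA replicate 1 or 2 was left out, 9 when Smndc1 shRNA replicate 1 was, and 13 or 12 when empty vector replicate 1 or 2 was.

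By gene list, calls were few, as they were among all tested regions, so the counts below are not results about the lists. Over all tested regions, 0.156%, 0.0% and 0.0759% were called with TMM factors and 1.13%, 0.269% and 0.592% with trended offsets, for Smndc1 shRNA and Atrx shRNA against empty vector and between the shRNAs. The median over all tested regions was 0.02 with Smndc1 shRNA and 0.01 with Atrx shRNA against empty vector (TMM factors). Of 34 genes of telomeres and ATRX partners, 2 lie in these windows: Rtel1, a helicase that unwinds telomere loops, and Cbx5, which encodes heterochromatin protein HP1 alpha. Their 8 tested regions gave 0 calls in the 3 comparisons with either fit, with medians of -0.26 with Smndc1 shRNA and -0.18 with Atrx shRNA and 2 of 8 positive in each. The Rtel1 promoter stood at 40.6, 37.5 and 30.5 CPM with empty vector and at 34.9, 32.6 and 26.5 CPM with Atrx shRNA (-0.21 with TMM factors). The Cbx5 promoter stood at 135.5, 152.9 and 90.0 CPM and at 166.0, 128.9 and 106.6 CPM (0.09). The groups overlap in both.

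The imprinted cluster on distal chromosome 7 holds 31 tested regions at 12 of its 17 listed genes, and 1, that of Th, was called higher with Smndc1 shRNA with trended offsets. The list median there was -0.08 with Smndc1 shRNA and -0.12 with Atrx shRNA with TMM factors. At Kcnq1ot1, the antisense RNA that silences part of the cluster in cis, the promoter stood at 21.8, 19.4 and 18.9 CPM with empty vector, 21.3, 24.6 and 18.6 CPM with Smndc1 shRNA and 26.3, 20.4 and 22.6 CPM with Atrx shRNA. These overlap. Ins2, the insulin gene that lies in the same cluster, has no open region. The growth and cell cycle genes beside it on chromosome 7 (40 tested regions, Ccnd1, Fgf15 and Fadd among them) gave 0 calls against empty vector with either fit (medians -0.097 and -0.032).

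Of 93 tested regions at endocrine and vesicle genes, 1 was higher with Smndc1 shRNA and 0 lower (trended offsets), the region of Th again, and 0 were called with Atrx shRNA (medians -0.044 and -0.069 with TMM factors). Over all tested regions 0.416% were higher and 0.717% lower with Smndc1 shRNA in that fit. Between the shRNAs, 1 of the 93 was higher (Th) and 2 lower (in Dscam and Myt1). Of 21 on a list of keratin and HoxC genes that also holds Sp1, Sp7 and Itga5, 1 (Krt7) was lower with Smndc1 shRNA and 1 (Krt8) higher with Atrx shRNA (medians -0.034 and -0.061). Of 145 at metabolic and housekeeping genes, 1 was higher and 3 lower with Smndc1 shRNA (with TMM factors, 1 lower, that of Zc3h10) and 0 were called with Atrx shRNA (medians 0.013 and 0.0037). Interferon and immune genes (14 regions, with Isg15, Mx2 and Stat2) gave 0 calls (medians 0.0054 and -0.026), a number too small to set against a background of at most 1.13%, as did the 4 tested regions at olfactory receptor genes, which number 70 in these windows (medians 0.81 and 0.44).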

How the data were processed

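The 9 alphaTC1 libraries were made by ATAC-seq, in which a transposase cuts accessible DNA, and sequenced as 75 bp paired-end reads. The authors deposited unscaled read counts for each consensus region, with the regions' mm10 (GRCm38) positions listed separately. Per the submitters' processing notes, Bowtie2 2.4.4, MACS2 2.2.7.1, bedtools 2.27.1, deepTools 3.5.1 and SAMtools were used. How regions were merged and reads counted is not given in the sources used here.

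Distances use the public mm10 chromosome lengths, entered by hand. Gene bounds and promoters come from RefSeq tables on GRCm38.p6, and a promoter region overlaps 250 bases before to 50 after a start. Counts were fitted with edgeR 4.0.16 in R 4.3.3 (quasi-likelihood F test, robust, filterByExpr with minimum count 10, 9 libraries, 1 coefficient per group). Scaling was by TMM, or by a loess curve of span 0.3 on log counts plus 0.5 as trended offsets. Windows needed 3 regions and a mean count of 50. On data simulated for Smndc1 shRNA against empty vector with the libraries' contrast (79906 regions), 100 regions were given a 2-fold and 100 a 4-fold change. TMM found 16 and 72 of them and trended offsets 15 and 73, while 3 and 5 regions without a change were also called. The simulated spread was that estimated with TMM factors. In the data the 2 fits called 125 and 910 of all tested regions in this comparison, a gap that the simulation did not reproduce. It therefore cannot tell how many of the added calls with trended offsets are true.

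The members, gene lists and tests were chosen with earlier results of these data known. Named regions are, by rule, up to 6 called regions per direction and fit (3 between the shRNAs) with mean log2 CPM of at least 1 and non-overlapping groups, the strongest and the outermost region of each autosome, and the strongest region of listed genes. Other called regions, among them Hsd11b1, the weaker region at Sp4, Uckl1, Krt7, Nalcn, Csnk1d, Dnajc5, Taf4, Shank2, Atf7, Myt1, Acvrl1 and Irf2bp2, the lower region in Cdh4, the region in Dscam and the outermost 16 regions with the 3 next to them were chosen after their values were seen. A permutation test planned for the shares was left out, since no p is given over the members. DESeq2 1.42.0 and limma 3.58.1 (voom) were alternatives. Tables and figures used Python 3.11.15, pandas 2.3.3, numpy 2.4.6 and matplotlib 3.10.9.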

Additional observations from a re-analysis of the deposited data

How the results depend on the processing

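The number of called distal regions depended strongly on the settings, and these counts limit what can be said of single regions, whose median library count is 28 to 39 over all regions. For Smndc1 shRNA against empty vector the 3 calls became 32 with trended offsets, 1 with DESeq2, 1 with limma voom, 11 with a mean count of at least 50, 6 at an adjusted p under 0.1, 1 in the last 1 Mb and 24 without replicate 3 of every group, and leaving out 1 library gave 0 to 19. For Atrx shRNA against empty vector the 0 calls became 9 with trended offsets, 1 with a fit to 6 libraries and 6 without replicate 3 of every group, and leaving out 1 library gave 0 to 1. Between the shRNAs the 3 calls became 0 with DESeq2 size factors, 0 with limma voom, 23 with trended offsets, 7 with a mean count of at least 50, 1 in the last 1 Mb and 10 without replicate 3 of every group, and leaving out 1 library gave 0 to 4. With trended offsets, leaving out 1 library gave 7 to 52, 0 to 25 and 6 to 25 calls in the same order, and 21 for Atrx shRNA without replicate 3 of every group. The cause of these shifts was not tested.

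The replicate number did not pair the libraries throughout. Same-numbered libraries correlated at -0.00672, 0.261 and -0.034 for replicate 1. They correlated at 0.171, 0.0276 and 0.0442 for replicate 2 and at 0.363, 0.426 and 0.322 for replicate 3. The values of replicate 3, which has less contrast in every group, were the highest. In all, 10 of 18 comparisons correlated best with their own number. The fits without a replicate block have no term for the replicate number. A replicate block gave 51, 13 and 25 calls, and 77, 35 and 47 with trended offsets, for the comparisons with empty vector and between the shRNAs in the same order. Of the outermost 16 regions with Atrx shRNA it called 4, and 7 with trended offsets. The share of all tested regions called with the block is not given here, so these counts have no background to set them against. The block also lowered p-values along the genome. With Atrx shRNA, 12.6% of the 847 windows had an unadjusted p under 0.05 with the block (edgeR), against 3.66% without it. Whether the end regions gained more than other regions was not tested.

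The share of counts in distal regions differed by -0.0552 percentage points with Atrx shRNA and by -0.000377 over the last 1 Mb. Chromosome-end windows gave 0 calls in every setting run. Over 82 pairs of a region and a comparison, 1325 alternative values kept their direction and side of the threshold, 33 fell short of it, 518 newly passed it and 10 changed sign, none of them called. With Atrx shRNA these were chr5:151733118-151733618 (-0.12 with trended offsets without empty vector replicate 3), chr7:145339430-145339930 (-0.021, trended offsets without Atrx shRNA replicate 2), chr19:61328597-61329097 (-0.10, trended offsets without Atrx shRNA replicate 1) and the Cbx5 promoter (-0.040 with trended offsets without replicate 3 of every group, and -0.11 to 0.25 over the libraries left out in turn, below 0 in the fits lacking Atrx shRNA replicate 1, at -0.10, or empty vector replicate 3), chr7:145335143-145335764 (0.080 with trended offsets without Atrx shRNA replicate 2, 0.14 with trended offsets without empty vector replicate 1, and -0.25 to 0.096 over the libraries left out in turn) and chr2:182001796-182003034 (-0.022 to 0.54 likewise). The distance limit of the outermost class, the counts of positive regions by setting and the leave-one-out fits with trended offsets were chosen after seeing the data.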
